A study of Mus musculus with 4 samples.

Results

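The genes described here encode the enzymes that write and remove cytosine methylation in DNA, together with their closest partners. They were taken by symbol from the deposited tables, and all 10 were found among 55335 genes. The methylating class held 6 genes, Dnmt1, Dnmt3a, Dnmt3b, Dnmt3l, Uhrf1 and Uhrf2. The demethylating class held 4 genes, Tet1, Tet2, Tet3 and Tdg. RNA was sequenced from AB2.2 cells, a mouse embryonic stem cell line grown on feeder fibroblasts from mouse embryos in serum medium with leukemia inhibitory factor and the inhibitors CHIR99021 and PD0325901. The 2 control libraries came from untreated cells, and the 2 lactate libraries from cells given 50 mM lactate for 24 h in the same medium. Nothing in the labels says whether replicates were separate cultures, so p-values measure only the spread between these libraries, which may be technical. AB2.2 is a single line, and the RNA of a library can hold feeder RNA.

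DNMT1 copies methyl groups onto the new strand after replication, and UHRF1 brings it to sites where only the old strand is methylated. UHRF2 is a relative of UHRF1. DNMT3A and DNMT3B methylate sites that were unmethylated on both strands, and DNMT3L, which has no catalytic activity of its own, stimulates them. The TET proteins oxidise methylcytosine stepwise with oxygen, iron and α-ketoglutarate, and TDG cuts out the most oxidised products so that base excision repair can restore cytosine. Embryonic stem cells grown with inhibitors of MEK and GSK3 are known for low DNA methylation, and cells that lack DNA methylation express germline genes that it normally silences.

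Promoters are shown for the 3 methylating genes whose lactate libraries lay below both control libraries, Dnmt1, Dnmt3b and Uhrf1, and for Tet2, the demethylating gene with the largest difference. The sequences are those of RefSeq on GRCm38.p6, and each runs over the 250 bases before an annotated start. Where a gene had several starts, the window shown is the one with the most CpG dinucleotides among those in which no base before the start lies in an annotated exon. The strand is that of the gene, and CG dinucleotides, the sites of DNA methylation, are in capitals. The Dnmt1 window is chr9:20952980-20953229 on the minus strand and the Dnmt3b window is chr2:153649199-153649448 on the plus strand. The Uhrf1 window is chr17:56304063-56304312 on the plus strand and the Tet2 window is chr3:133544391-133544640 on the minus strand. The Dnmt1, Uhrf1 and Tet2 starts lie inside the genes as GENCODE M21 bounds them.
Dnmt1: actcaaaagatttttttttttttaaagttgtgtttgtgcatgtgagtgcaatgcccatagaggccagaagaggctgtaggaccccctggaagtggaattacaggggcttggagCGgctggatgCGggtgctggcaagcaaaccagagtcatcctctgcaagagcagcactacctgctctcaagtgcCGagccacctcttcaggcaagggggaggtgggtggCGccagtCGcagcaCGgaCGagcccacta
Dnmt3b: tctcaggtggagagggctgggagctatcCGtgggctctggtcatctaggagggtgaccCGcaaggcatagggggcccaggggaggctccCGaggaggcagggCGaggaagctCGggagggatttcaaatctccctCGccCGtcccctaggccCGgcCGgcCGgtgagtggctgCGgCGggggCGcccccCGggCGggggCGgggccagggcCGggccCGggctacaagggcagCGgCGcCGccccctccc
Uhrf1: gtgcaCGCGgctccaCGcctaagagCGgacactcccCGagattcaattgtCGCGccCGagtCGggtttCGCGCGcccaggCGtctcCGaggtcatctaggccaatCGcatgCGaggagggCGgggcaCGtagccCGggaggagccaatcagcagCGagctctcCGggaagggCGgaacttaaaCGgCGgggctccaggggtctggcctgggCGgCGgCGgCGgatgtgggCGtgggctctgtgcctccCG
Tet2: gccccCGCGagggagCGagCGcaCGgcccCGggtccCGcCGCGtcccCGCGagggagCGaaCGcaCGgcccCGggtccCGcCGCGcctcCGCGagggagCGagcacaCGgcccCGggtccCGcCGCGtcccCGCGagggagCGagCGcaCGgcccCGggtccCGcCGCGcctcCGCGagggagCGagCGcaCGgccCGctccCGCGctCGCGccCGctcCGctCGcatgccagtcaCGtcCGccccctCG

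With the 50 bases after the start included, these windows of 300 bases held 12 CpG dinucleotides at Dnmt1, 30 at Dnmt3b, 33 at Uhrf1 and 57 at Tet2. The window at the innermost Dnmt1 start held 33. It is not shown because 166 bases before that start lie in an annotated exon. The median over all 32851 promoter windows was 7, and 99.85% of windows held fewer than the Tet2 window. All 10 genes had at least 1 window, and their 17 windows ranged from 2 CpG dinucleotides at the outermost Dnmt1 start to 57. The letters TTTCCCGC and TTTGGCGC, separate forms of the site read by E2F factors, were searched on both strands. They were found in 1 of the 17 windows, at the innermost Dnmt1 start, and in 1.56% of all windows. Other forms of the site were not searched, so a window without these letters may still hold a site.

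Reads counted on genes numbered between 18067562 and 19077885 per library. Mitochondrial genes took 5.48% and 5.72% of these in the replicates numbered 1 of control and lactate, and 2.43% and 2.82% in those numbered 2. Each replicate number holds 1 library of each group, which is too few for a value within a number with its own error. All 10 genes passed the filter on low counts, and the smallest count of any of them was 411 reads, for Tet3 in control replicate 1. Levels between genes are given as TPM, the share of transcripts corrected for length, and levels of a gene between groups also as CPM, its share of the reads after TMM normalization. Each log2 fold change is lactate over control and comes, with its standard error (SE), from edgeR's quasi-likelihood test over 18661 genes. Calls required a Benjamini-Hochberg adjusted p under 0.05 over all these genes and more than a 2-fold change.

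In the edgeR test without a replicate term, none of the 10 genes was called as higher or lower with lactate. None had an adjusted p under 0.05 at any fold in that test. Of all genes tested, 103 (0.552%) were called as higher and 65 (0.348%) as lower, and 0.991% had an adjusted p under 0.05 at any fold. With library totals alone in place of TMM, 108 were called as higher and 40 as lower. At an unadjusted p under 0.05, 3 of the 6 methylating genes were lower with lactate, where 11.4% of all genes were, and none was higher, where 11.7% of all genes were. None of the 4 demethylating genes reached this level in either direction. DESeq2 called none of the 10 either, and gave only Dnmt3b an adjusted p under 0.05. With a block by replicate number, edgeR also called none but gave 8 of the 10 an adjusted p under 0.05. Nothing in the labels pairs the libraries in this way. The share of all genes at that adjusted p was not taken in either fit, so these counts have no background. Genes called over the whole table numbered 358 in DESeq2 and 1156 with the block. Without the block, edgeR's log2 fold change was below 0 for 5 of the 6 methylating genes, with a median of −0.43. It was above 0 for all 4 demethylating genes, with a median of 0.17. Over all genes tested 51% were above 0, 49% were below 0 and the median was 0.01.

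**Figure D1:**
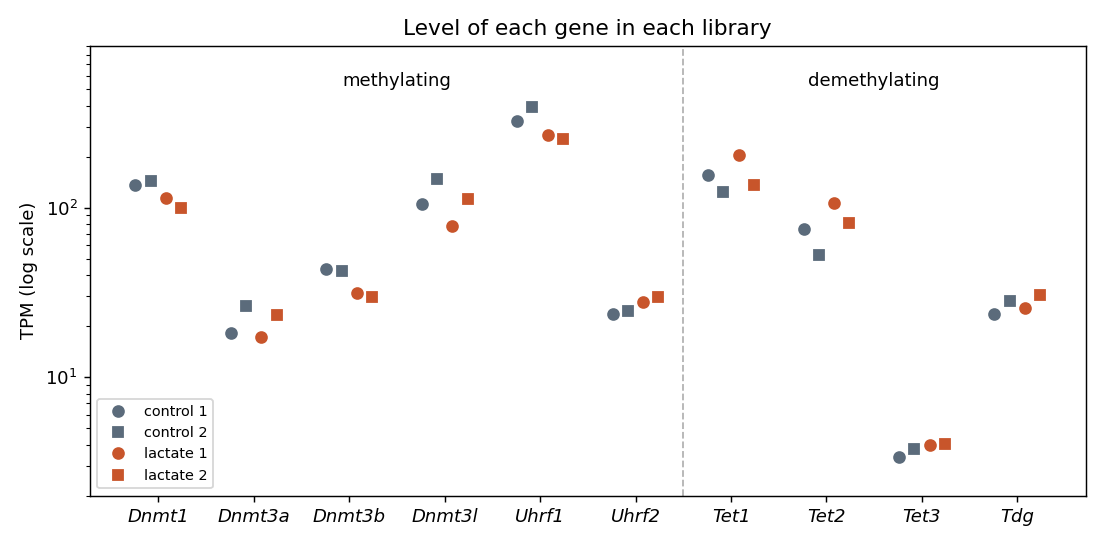
TPM on a log axis for each gene in each library, with control in grey, lactate in orange, circles for replicate 1 and squares for replicate 2. The lactate points of Dnmt1, Dnmt3b and Uhrf1 lie below both control points, and those of Uhrf2, Tet2 and Tet3 lie above both.

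Among the maintenance genes, Dnmt1 on chromosome 9 (GRCm38, 20907209 to 20959888) had a level of 135 and 144 TPM in control replicates 1 and 2, and of 114 and 100 TPM in lactate replicates 1 and 2. Both lactate libraries lay below both control libraries. The mean was 514 ± 10.5 CPM in control and 374 ± 30.6 CPM with lactate (SD, n = 2), or 1.37-fold lower. In log2 this was −0.46 (SE 0.14, edgeR adjusted p = 0.133), and the 95% interval from −0.80 to −0.12 lay below 0 and short of a 2-fold change.

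Uhrf1 on chromosome 17 (56303321 to 56323486) had the highest level of the 10 genes in every library. It stood at 325 and 390 TPM in control and at 269 and 255 TPM with lactate, and the groups did not overlap. In CPM the control libraries were at 753 and 886, and both lactate libraries were at 578 after rounding. The lactate mean was 1.42-fold lower, at a log2 fold change of −0.50 (SE 0.15, 95% interval −0.87 to −0.14, edgeR adjusted p = 0.129). The ratio of Uhrf1 to Dnmt1 TPM was 2.40 and 2.71 in control and 2.35 and 2.55 with lactate, ranges that overlap.

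Uhrf2 on chromosome 19 (30030513 to 30093722) lay the other way. Its level was 23.5 and 24.5 TPM in control and 27.9 and 29.65 TPM with lactate, again without overlap. The difference was 0.22 in log2 (SE 0.12, 95% interval −0.08 to 0.52, edgeR adjusted p = 0.350). The ratio of Uhrf1 to Uhrf2 TPM was 13.8 and 15.9 in control against 9.62 and 8.60 with lactate. Non-overlap by itself is common in 2 libraries against 2, since 25.9% of all genes tested had both lactate libraries below both control libraries in CPM and 27% had both above. Of the methylating genes 3 lay below and 1 above by this measure, and of the demethylating genes 0 lay below and 2 above.

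Dnmt3b on chromosome 2 (153649450 to 153687730) had the largest log2 fold change in size of the 10 genes in the edgeR fit. Its level was 43.7 and 42.4 TPM in control against 31.2 and 29.8 TPM with lactate. The libraries of each group agreed closely, at 117 ± 1.60 CPM in control and 77.5 ± 2.5 CPM with lactate (SD, n = 2). This was 1.51-fold lower with lactate, or −0.59 in log2 (SE 0.12, 95% interval −0.89 to −0.29, edgeR adjusted p = 0.0688). The DESeq2 value was −0.61 (adjusted p = 0.0409).

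Dnmt3a on chromosome 12 (3806007 to 3914443) stood at 18.2 and 26.35 TPM in control and at 17.3 and 23.3 TPM with lactate. The groups overlapped, and the difference between the libraries within a group exceeded the difference between the groups. In log2 the groups differed by −0.18 (SE 0.15, 95% interval −0.55 to 0.19, edgeR adjusted p = 0.523), and by −0.31 to −0.076 with 1 library left out. Dnmt3b was the more abundant of the catalytic pair per length in every library, by 2.40 and 1.61 times in control and by 1.80 and 1.28 times with lactate.

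Dnmt3l on chromosome 10 (78041947 to 78063622) had more transcripts per length than both of its catalytic partners together. It was at 105 and 147 TPM in control and at 78.1 and 113 TPM with lactate, so the groups overlapped. The ratio of Dnmt3l to the sum of Dnmt3a and Dnmt3b was 1.69 and 2.14 in control and 1.61 and 2.13 with lactate. Dnmt3l had the widest interval of the 10 genes, with a log2 fold change of −0.41 (SE 0.24, 95% interval −0.99 to 0.16, edgeR adjusted p = 0.353). With any 1 library left out the value ranged from −0.73 to −0.18. Exons of Dnmt3l share 67 bases with Aire on the opposite strand, and the sources used here do not say whether counting used strand.

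**Figure D2:**
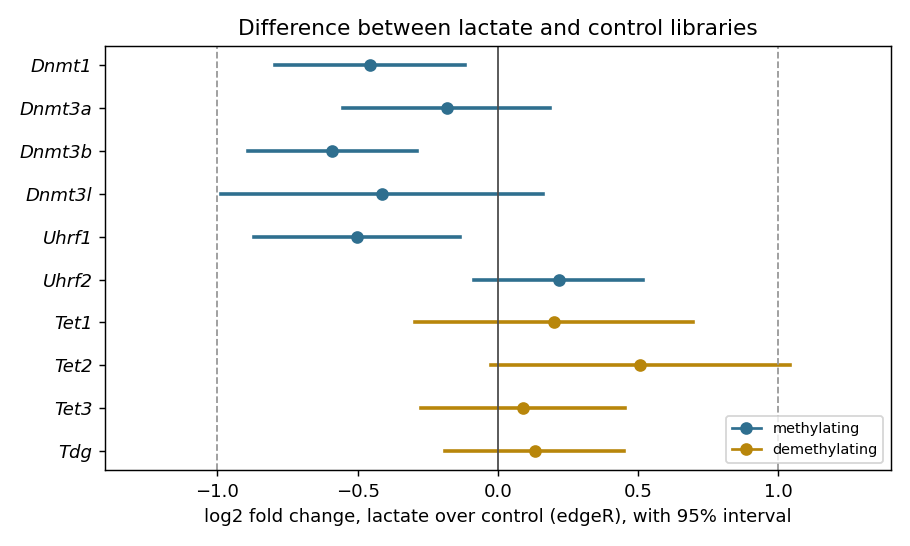
Log2 fold change of lactate over control (edgeR, x axis) for each gene, with bars for the 95% interval, blue for methylating and gold for demethylating genes, and dashed lines at a 2-fold change. The intervals of Dnmt1, Dnmt3b and Uhrf1 lie below 0, and those of the other 7 genes include 0.

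Tet1 on chromosome 10 (62804570 to 62908996), the most abundant TET gene, was at 157 and 123 TPM in control and at 203 and 136 TPM with lactate. The lactate replicate 2 library lay between the control libraries. Its log2 fold change was 0.20 (SE 0.20, 95% interval −0.29 to 0.70, edgeR adjusted p = 0.610). Without lactate replicate 1 it was −0.05.

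Tet2 on chromosome 3 (133463679 to 133545139) was at 74.9 and 52.2 TPM in control and at 106 and 80.9 TPM with lactate. The groups did not overlap, though the lowest lactate value exceeded the highest control value by less than the spread within either group. In CPM the means were 289 ± 65.3 in control and 411 ± 84.5 with lactate (SD, n = 2). Tet2 was thus 1.42-fold higher on average, or 0.51 in log2 (SE 0.22, 95% interval −0.02 to 1.04, edgeR adjusted p = 0.235). The value was 0.25 without lactate replicate 1, 0.29 without control replicate 2, and 0.70 and 0.74 with the other libraries left out. The ratio of Tet1 to Tet2 TPM was 2.09 and 2.36 in control and 1.92 and 1.68 with lactate, ranges that did not overlap.

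Tet3 on chromosome 6 (83362373 to 83459084) had the lowest level of the 10 genes, at 3.37 and 3.76 TPM in control and 3.97 and 4.01 TPM with lactate. The groups did not overlap in TPM but overlapped in CPM, and the log2 fold change was 0.09 (95% interval −0.27 to 0.45, edgeR adjusted p = 0.775). Without control replicate 1 it was −0.0017. Tdg on chromosome 10 (82629828 to 82650799) was at 23.7 and 28.1 TPM in control and at 25.7 and 30.6 TPM with lactate. Tdg overlapped between the groups in TPM but not in CPM, at 53.7 and 48.3 CPM in control and 56.2 and 55.6 CPM with lactate. Its log2 fold change was 0.13 (95% interval −0.19 to 0.45, edgeR adjusted p = 0.602), and 0.052 to 0.19 with 1 library left out. Tdg has a pseudogene, Tdg-ps, with 33 and 81 reads in control and 38 and 111 reads with lactate, so some reads may have been split between the copies. For Tet3 and Tdg the intervals left out a 2-fold change in either direction.

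The order of the mean levels was the same in both groups apart from Tdg and Uhrf2, which changed places. Uhrf1 led, and its libraries stood clear of the next gene. In control, Tet1, Dnmt1 and Dnmt3l followed at means of 140, 139.5 and 126 TPM, and the ranges of neighbours in this order overlapped. Tet2 came after them at 63.6 TPM and overlapped neither neighbour. With lactate, Tet1 followed at 169 TPM and stood clear of Dnmt1 at 107 TPM, while Dnmt1 overlapped Dnmt3l at 95.6 TPM and Dnmt3l overlapped Tet2 at 93.5 TPM. After Tet2, Dnmt3b came next in both groups. Tdg, Uhrf2 and Dnmt3a lay between 20.3 and 28.8 TPM on average in both groups, and Tet3 was last.

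The summed level of each class sets the RNA of the methylating genes beside that of the demethylating genes. The methylating sum holds Uhrf1, Uhrf2 and Dnmt3l as well as the catalytic enzymes, so it is not a measure of writing activity. No sum was taken of Dnmt1, Dnmt3a and Dnmt3b alone. The 6 methylating genes summed to 650 and 775 TPM in control and to 537 and 551 TPM with lactate, so both lactate sums were below both control sums. The 4 demethylating genes summed to 259 and 208 TPM in control and to 339 and 251 TPM with lactate, and these sums overlapped. The ratio of methylating to demethylating TPM was 2.51 and 3.73 in control and 1.585 and 2.19 with lactate. On the log2 scale the mean ratio was 1.61 ± 0.40 in control and 0.90 ± 0.33 with lactate (SD, n = 2), a difference of −0.72.

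The groups did not overlap in this ratio, but lactate replicate 2 at a log2 ratio of 1.13 was near control replicate 1 at 1.33. Leaving out control replicate 2 brought the difference to −0.43, and leaving out control replicate 1 brought it to −1.002. No test was made of this ratio, because the genes were chosen with results of these data known and because 2 libraries against 2 cannot give an exact two-sided permutation p below 0.33. Uhrf1 made up 46.3% to 50.4% of the methylating sum in the 4 libraries, and Tet1 and Tet2 together made up 84.6% to 91.2% of the demethylating sum. Without Uhrf1 the difference in the log2 ratio was −0.66, an alternative chosen after the data were seen. The ratio of Dnmt1 to Tet1 alone was 0.86 and 1.17 in control and 0.56 and 0.74 with lactate.

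**Figure D3:**
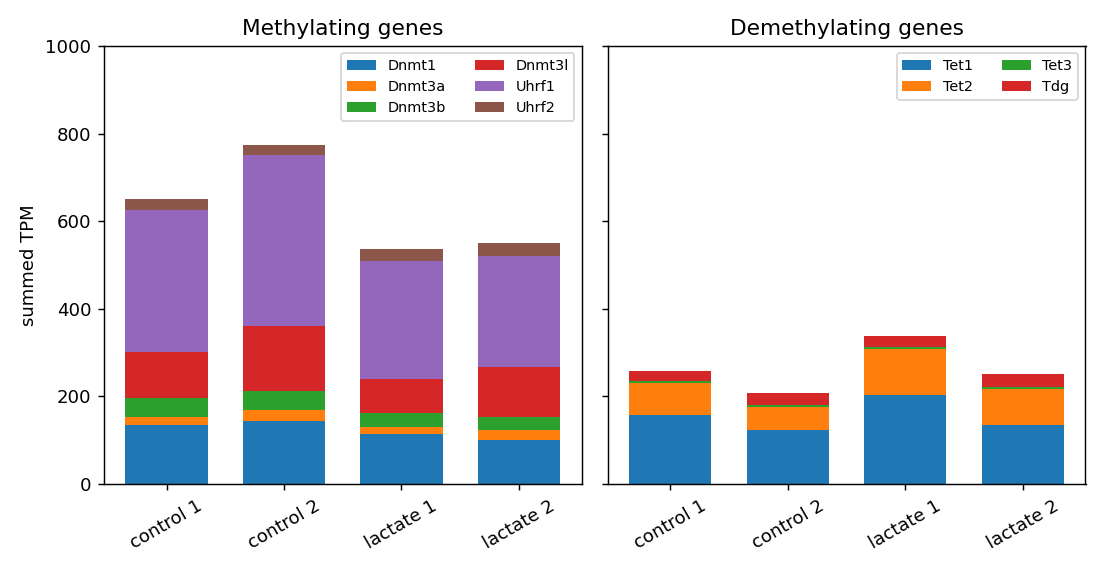
Stacked bars of TPM for the methylating genes (left) and the demethylating genes (right) in each library, with 1 colour per gene. The methylating bars stand at 650 and 775 TPM in control and at 537 and 551 TPM with lactate, and the demethylating bars of the groups overlap.

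Lists of genes that work beside these enzymes were read from the same fit, and their counts can be read against all genes tested, of which 0.552% were called as higher and 0.348% as lower, 11.7% were higher and 11.4% lower at an unadjusted p under 0.05, and 49% were below 0. Of 18 genes listed as partners, guides or relatives of the methylating enzymes, 17 passed the filter and none was called. The log2 fold change was below 0 for 11 of them, with a median of −0.11, and at an unadjusted p under 0.05 there were 2 higher and 5 lower. Ehmt2, the histone H3K9 methyltransferase G9a, had the largest log2 fold change below 0 in this list. It was at 71.0 and 84.7 TPM in control and at 45.9 and 46.5 TPM with lactate, which is −0.84 in log2 (edgeR adjusted p = 0.0678). Dppa3, whose product keeps UHRF1 off chromatin, was at 8.21 and 3.98 TPM in control and at 20.7 and 11.2 TPM with lactate, which is 1.02 in log2 (SE 0.41, edgeR adjusted p = 0.210). Dnmt3c, the methyltransferase of male germ cells, did not pass the filter and was at 0.39 TPM or less in every library.

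Of 15 genes for cofactors and partners of the TET proteins, 14 passed and none was called, with 3 higher and 1 lower at an unadjusted p under 0.05 and a median log2 fold change of 0.12. Slc23a2, a transporter of vitamin C, which keeps the iron of TET enzymes reduced, was at 20.2 and 23.3 TPM in control and at 40.1 and 42.9 TPM with lactate. The difference was 0.88 in log2 (SE 0.15, edgeR adjusted p = 0.0526). Sin3a, a corepressor that binds TET1, was at 154 and 102 TPM in control and at 104 and 61.6 TPM with lactate, which is −0.58 in log2 (edgeR adjusted p = 0.157).

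All 15 genes for the repair that follows TDG, and for related glycosylases and Gadd45 proteins, passed the filter, and 1 was called, as lower. This was Xrcc1, the scaffold that holds the repair ligase and polymerase. Xrcc1 on chromosome 7 (24546289 to 24573440) fell from 116 and 127 TPM in control to 61.6 and 60.8 TPM with lactate, which is −1.01 in log2 (SE 0.13, edgeR adjusted p = 0.0406). This change lay just past the 2-fold threshold, and no gene of the lists was called as lower with library totals alone, upper-quartile factors, RSEM expected counts, limma-trend on FPKM, or either control library left out. Gadd45a, a stress-induced gene linked to demethylation, was named after its values were seen. It stood at 31.2 and 32.4 TPM in control and at 66.7 and 74.7 TPM with lactate, which is 1.10 in log2 (SE 0.17, edgeR adjusted p = 0.0506). The median log2 fold change of the list was −0.12.

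The methyl donor cycle makes and recycles S-adenosylmethionine, the substrate of every DNA methyltransferase. Of its 15 genes 14 passed and none was called, with 2 higher and 2 lower at an unadjusted p under 0.05. Bhmt, which remethylates homocysteine from betaine, was at 9.27 and 10.6 TPM in control and at 20.9 and 24.0 TPM with lactate, which is 1.11 in log2 (edgeR adjusted p = 0.0520). Nnmt, which spends S-adenosylmethionine on nicotinamide, had 1.01 in log2 on at most 54 reads per library (edgeR adjusted p = 0.222). The median of this list was 0.11. All 9 readers of methylated CpG sites passed the filter, and their log2 fold changes lay between −0.20 for Mbd3 and 0.19 for Mbd5. None of the readers was called, none had an unadjusted p under 0.05, and none had groups that did not overlap.

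**Figure D4:**
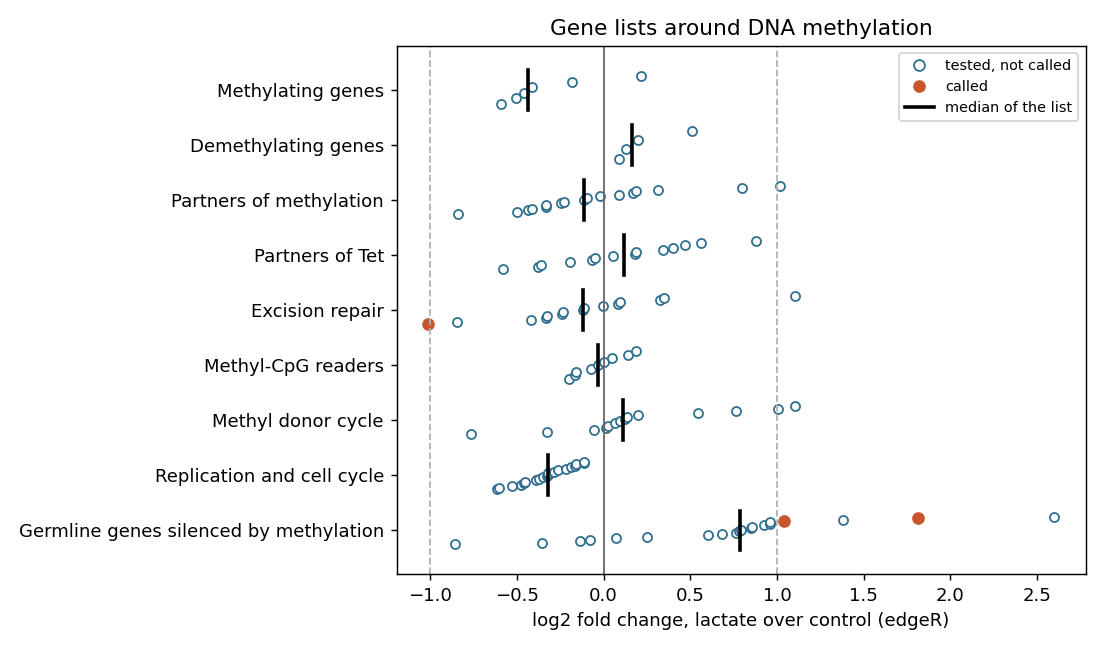
Log2 fold change of lactate over control (edgeR, x axis) for each tested gene of 9 lists, with 1 point per gene, filled where the gene was called, black bars for the median of the list and dashed lines at a 2-fold change. The called genes are Xrcc1 below 0 and Fkbp6 and Taf7l above 0, and all points of the replication list lie below 0.

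Dnmt1 and Uhrf1 are known to be transcribed most in S phase, so genes of replication and the cell cycle were read beside them. All 20 of these passed the filter and had a log2 fold change below 0 under every scaling tried, and 19 did without control replicate 1 or without lactate replicate 2. Of all genes 49% were below 0. The values of the list ran from −0.61 to −0.11 with a median of −0.32. None was called, and 9 were lower at an unadjusted p under 0.05, where 11.4% of all genes were. Pcna, the sliding clamp of replication, was at 392 and 390 TPM in control and at 286 and 269 TPM with lactate, which is −0.61 in log2 (edgeR adjusted p = 0.0694). Mcm5, a subunit of the replicative helicase, also had −0.61 in log2 (edgeR adjusted p = 0.131). The summed TPM of the list was between 3523 and 3750 in control and between 3049 and 3060 with lactate. The part of this difference in the values of Dnmt1 and Uhrf1 was not tested.

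Markers were read for the cell types the libraries could hold. All 12 markers of embryonic stem cells were detected, and their summed TPM was between 6119 and 8542 in control and between 6871 and 10560 with lactate. Dppa5a was the largest single part of this sum, at 2539 and 4683 TPM in control and at 2900 and 6596 TPM with lactate. The overlap of the sums thus rests largely on this gene, and no sum was taken without it. The 18 feeder markers were detected as well, none of them at 0 and the scarcest, Lum, with as few as 7 reads in a library. They summed to between 483 and 608 TPM in control and between 551 and 554 TPM with lactate. No marker of either type was called, where 0.552% of all genes tested were called as higher and 0.348% as lower. At an unadjusted p under 0.05 there were 3 higher and 2 lower stem cell markers and 2 higher and 2 lower feeder markers. Of all genes tested, 11.7% were higher and 11.4% lower at that p. In bulk RNA, fewer cells of a type and less RNA per cell cannot be told apart.

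A last list held 20 germline genes known or thought to be silenced by DNA methylation in stem cells, of which the study drew several from these same libraries, so the list is not independent evidence of its direction. All 20 passed the filter, 2 were called as higher and none as lower, and 14 were higher and 1 lower at an unadjusted p under 0.05. Of all genes tested, 0.552% were called as higher and 0.348% as lower, and 11.7% and 11.4% were higher and lower at that unadjusted p. The median log2 fold change was 0.79. Not every member was silent in control, where levels ran from 0.04 and 0.14 TPM for Tdrd1 to 323 and 358 TPM for Rpl10l. The gene that was lower at the unadjusted p was Tuba3a, at 139 and 158 TPM in control. Its log2 fold change was −0.86 (edgeR adjusted p = 0.0520). Fkbp6, a chaperone partner of the piRNA pathway, rose from 29.0 and 36.6 TPM to 70.1 and 69.2 TPM, which is 1.04 in log2 (SE 0.15, edgeR adjusted p = 0.0467). Taf7l, a germ cell subunit of the general transcription factor TFIID, rose from 3.71 and 2.14 TPM to 10.4 and 9.29 TPM, which is 1.81 in log2 (SE 0.23, edgeR adjusted p = 0.0406). Over all the lists only 1 gene was called, as higher, without control replicate 1. DNA methylation itself was not measured in these libraries.

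The genes nearest to Dnmt3b in their pattern over the 4 libraries, by Euclidean distance between log2 CPM centred on each gene's mean, were Phrf1 at 0.01, 1700016D08Rik at 0.01 and Entpd7 at 0.02. Their log2 fold changes were −0.59, −0.58 and −0.60. The pattern of 1700016D08Rik rests on few reads, as it was at 0.48 to 0.75 CPM over the 4 libraries. With 4 libraries many genes can have nearly the same pattern.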

How the data were processed

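RNA-seq was analysed in 2 control and 2 lactate libraries of AB2.2 cells, grouped by the labels. The authors trimmed reads with cutadapt 1.16, mapped them with STAR to mm10, which is GRCm38, and counted them in exons of GENCODE M23. The deposited counts are raw. The deposited expected counts, TPM and FPKM came from RSEM, whose version is not given in the sources used here. Gene lengths in the same tables are RSEM's averages over transcripts. Positions came from GENCODE M21 on GRCm38.

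Counts of genes, without transposable elements, were filtered by edgeR's filterByExpr and normalized by TMM. They were then compared by the quasi-likelihood test in its legacy form, without a replicate term (R 4.3.3, edgeR 4.0.16, limma 3.58.1, DESeq2 1.42.0). The standard error is the log2 fold change divided by the square root of F, and the 95% interval uses the test's degrees of freedom. The common biological coefficient of variation was 15.9%. A chi-square test over genes gave 32.2 per degree of freedom between the control and 31.4 between the lactate libraries. Neither library of a group was thus a copy of the other, but this cannot show that they were separate cultures. Each library was entered as a replicate. The test was tried on simulated counts. Expected counts were rounded for the alternative that used them. The limma alternatives used log2(FPKM + 1) and log2(FPKM + 0.1).

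The genes and lists were chosen with earlier results of these data known. Named were all 10 genes and the 3 genes nearest in pattern to the gene with the largest change. From each list other than the marker lists, the called genes were named, or otherwise the 2 largest log2 fold changes. Gadd45a, Dnmt3c, Dppa5a, Lum, Tdrd1, Rpl10l and Tuba3a were named outside this rule.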

Additional observations from a re-analysis of the deposited data

How the results depend on the processing

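None of the 10 genes was called under any of the 17 alternatives over all genes, and 168 of 170 gene values kept their direction. The exceptions were Tet1, at −0.053 without lactate replicate 1 and 0.39 without lactate replicate 2, and Tet3, at −0.0017 without control replicate 1 and 0.16 without control replicate 2. Where a library was left out, the lone library of its group was assumed to vary like the other group. At an adjusted p-value under 0.05 with any fold, where edgeR with its filter and no replicate term had 0 of the 10 genes, DESeq2 had 1, Dnmt3b, and edgeR without the filter on low counts had 2, Dnmt3b and Uhrf1, all lower. With a replicate block it had 8, of which 3 were higher and 5 lower. The share of all genes at that threshold was not taken under these alternatives, so the counts have no background beside them. Calls over all genes, which also need a 2-fold change, went from 168 to 358 in DESeq2, 807 without the filter and 1156 with the block. The replicates share only a number, so this block is a hint from the data. Over 10186 genes the deviations from the group means correlated with r = 0.84 between the libraries numbered 1 of both groups.

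Genes called over the whole table numbered 168, and 358 in DESeq2, 44 with RSEM expected counts, 807 without the filter, 1156 with the replicate block, 428 in limma-trend on log2(FPKM + 1) without a filter on FPKM, and 0 in limma-trend with that filter at either pseudocount. Leaving out 1 library gave 84 to 869, with 84 without control replicate 1, 315 without control replicate 2, 642 without lactate replicate 1 and 869 without lactate replicate 2. Calls in the lists beside the 10 genes numbered 3. They numbered 6 in DESeq2, 0 with RSEM expected counts, 5 without the filter, 9 with the replicate block, 5 in limma-trend without a filter on FPKM and 0 in limma-trend with it, and 1 to 10 with 1 library left out. The cause of these differences was not tested. The difference in the log2 ratio of methylating to demethylating TPM was −0.53 to −0.74 in other units or member sets, and −1.002 to −0.43 with 1 library left out. Scaling by library totals alone moved the median log2 fold change of all genes from 0.01 to 0.08 and turned no gene of the 10.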

Other observations

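The RSEM tables give each gene a length averaged over its transcripts by their abundance, which moves when a gene uses longer or shorter transcripts. For Dnmt3a, which is known to make a long and a short protein from different starts, this length was 4742 and 4276 bases in control replicates 1 and 2 and 4908 and 4283 bases in lactate replicates 1 and 2. The values differed by more between the libraries of a group than between the groups. Tdg had lengths of 2860 and 2348 bases in control and of 2837 and 2482 bases with lactate, which again overlapped. Dnmt1 varied little, from 5182 to 5287 bases over the 4 libraries. Dnmt3b was at 3786 and 3967 bases in control and at 3752 and 3908 bases with lactate, so its lower level with lactate came with no separation of the groups in length. Uhrf1 was the only gene of the 10 whose groups did not overlap in length, at 3364 and 3361 bases in control and at 3380 and 3414 bases with lactate. The share of all genes whose groups separate in length was not taken, so this separation cannot be called particular to Uhrf1. Tet1 was at 6760 and 6872 bases in control and at 6550 and 7126 bases with lactate. No test was made of these lengths.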
